A study of Mus musculus with 10 samples.

Results

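Imprinted genes outside the Dlk1-Dio3 domain were followed through a cycle of culture media in mouse embryonic stem cells. The set was a fixed list of 52 genes of the 24015 in the count tables, chosen as genes reported in the mouse to be expressed mainly from the maternal chromosome (24 genes) or from the paternal chromosome (28 genes). They were arranged by imprinted cluster. The reads were counted per gene and not per allele, so the expressed allele is a textbook assignment, tissue dependent for several of the genes, and was not measured here.

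All cells were embryonic stem cells from the inner cell mass of the mouse blastocyst that carried a reporter of Wnt and β-catenin signalling. They grew on gelatin with the cytokine LIF and were split about every 48 h. There were 5 groups of 2 libraries. The first, called serum here, grew in conventional Serum/LIF. The group called first 2i had spent 5 to 6 passages in 2i/LIF, which holds a GSK3 inhibitor at 3 µM and the ERK inhibitor PD at 1 µM, and the group called long 2i more than 13 passages. The group called serum return had more than 13 passages of 2i/LIF and then 6 of Serum/LIF. The group called second 2i had 13 passages of 2i/LIF, 6 of Serum/LIF and a further 4 to 5 of 2i/LIF. Its first stretch is labelled 13 and not more than 13 passages, and the labels do not say that it came from the sampled serum return cells. They name neither the line nor its clone, strain or sex, and they do not say that the libraries of a group came from separate cultures, so a p-value reflects only how much the libraries of a group vary, and that variation may be technical.

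Imprinted genes are marked in the germ line: DNA methylation placed in egg or sperm at a control region survives the wave of demethylation after fertilisation and silences, directly or through a noncoding RNA, the genes of that parental chromosome. The zinc finger protein Zfp57, which binds methylated TGCCGC, and its partner Trim28 hold the mark in embryonic stem cells together with the maintenance methyltransferase Dnmt1. Many maternally expressed genes restrain growth of the embryo or placenta and many paternally expressed genes promote it. Culture in 2i is known to lower DNA methylation across the genome of mouse embryonic stem cells, and imprinted regions can lose methylation when such culture is prolonged. No methylation was measured here.

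Promoter sequence was available for 41 of the genes in RefSeq windows of 250 bases before to 50 after a transcription start (build GRCm38.p6, which differs from the build of the counts), in 61 windows. The hexamer TGCCGC, searched on both strands, was in 24.6% of these windows, against 11.6% of all 32851 RefSeq windows. Some genes are listed, from textbook knowledge, with a promoter in a germline region methylated on the maternal chromosome. The hexamer was in 44.4% of the 18 windows of these genes and in 16.3% of the 43 windows of the other genes. Genes and not windows were sorted this way. A window of a listed gene, such as those of Snrpn at starts far apart, thus need not lie in a germline region. Several windows overlap, such as the shared one of Snrpn and Snurf, a pair at Mest, and those of Peg3 and Usp29. The window shared by Snrpn and Snurf and both windows of the Mest pair hold the hexamer. Such stretches are thus counted more than once in the shares above, which are not corrected for overlap. The windows of the imprinted genes held a median of 15 CG pairs, against 7 over all windows. A match describes the letters in the window and is not a binding site. The 5 windows below are examples chosen after the levels of their genes were seen: Plagl1, Mest, Nnat and Peg3 are paternally expressed genes with a promoter in such a germline region, and Phlda2 is a maternally expressed gene without one. Capitals mark TGCCGC or its reverse complement GCGGCA, and every sequence runs 5′ to 3′ on the strand of its gene. The Plagl1 window (chr10:13090582-13090881, plus strand) holds 1 match, the second Mest window (chr6:30737800-30738099, plus strand) holds 2, and the Nnat window (chr2:157559828-157560127, plus strand) holds 1. The windows of Peg3 (chr7:6730370-6730669, minus strand) and Phlda2 (chr7:143502475-143502774, minus strand) hold none.
Plagl1: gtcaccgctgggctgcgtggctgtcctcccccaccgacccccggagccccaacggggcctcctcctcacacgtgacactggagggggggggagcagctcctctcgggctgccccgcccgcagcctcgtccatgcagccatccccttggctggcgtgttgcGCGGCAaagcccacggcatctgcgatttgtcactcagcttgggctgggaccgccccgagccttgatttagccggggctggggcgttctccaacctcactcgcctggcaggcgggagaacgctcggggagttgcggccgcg
Mest: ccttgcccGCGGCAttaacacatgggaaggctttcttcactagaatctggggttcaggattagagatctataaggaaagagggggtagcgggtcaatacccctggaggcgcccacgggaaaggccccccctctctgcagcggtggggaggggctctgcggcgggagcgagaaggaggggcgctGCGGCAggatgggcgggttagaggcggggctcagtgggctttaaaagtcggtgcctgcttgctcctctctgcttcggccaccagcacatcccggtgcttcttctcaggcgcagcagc
Nnat: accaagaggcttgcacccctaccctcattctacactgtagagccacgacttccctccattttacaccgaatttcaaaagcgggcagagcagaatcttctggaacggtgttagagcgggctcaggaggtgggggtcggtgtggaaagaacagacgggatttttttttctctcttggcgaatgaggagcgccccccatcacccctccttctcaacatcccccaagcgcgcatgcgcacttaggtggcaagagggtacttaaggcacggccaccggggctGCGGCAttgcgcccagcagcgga
Peg3: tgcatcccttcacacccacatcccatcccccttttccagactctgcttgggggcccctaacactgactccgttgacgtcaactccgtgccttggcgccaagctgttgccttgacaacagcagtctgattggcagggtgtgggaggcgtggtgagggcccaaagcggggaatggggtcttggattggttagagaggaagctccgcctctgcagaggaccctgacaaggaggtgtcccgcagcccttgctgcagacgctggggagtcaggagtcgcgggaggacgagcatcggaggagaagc
Phlda2: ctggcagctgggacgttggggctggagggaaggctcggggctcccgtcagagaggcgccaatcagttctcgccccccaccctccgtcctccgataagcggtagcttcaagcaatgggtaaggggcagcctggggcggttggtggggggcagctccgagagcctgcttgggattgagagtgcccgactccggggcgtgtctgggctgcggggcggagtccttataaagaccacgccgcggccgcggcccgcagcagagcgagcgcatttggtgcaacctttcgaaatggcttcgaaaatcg

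The libraries held 16809070 to 27766338 gene counts. The embryonic stem cell markers, among them Pou5f1, Sox2 and Nanog, were detected in every library, with a summed level of 6136 to 9044 CPM. Here CPM is the count scaled to a common library size with TMM factors, not divided by gene length, so levels are compared between groups and not between genes. Detection of some genes differed between the series of library titles. There were 21 genes with at least 10 counts in the libraries titled LEM (replicate 1 of every group) and none in those titled MLE (replicate 2). No gene showed the reverse. Dcn, the extracellular matrix proteoglycan decorin and one of the imprinted genes, was among them, with 130 counts in the LEM libraries and 0 in the MLE libraries. Its levels were 0.813 and 0 CPM in serum and 2.48 and 0 CPM in serum return, so its replicates differed more than its groups, and it passed no test.

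Of the 52 genes, 43 had enough counts to be tested. Ins2, which encodes insulin, the protease inhibitor gene Tfpi2, Snrpn and Snurf had no count in any library. The potassium channel gene Kcnq1, the antisense RNA Airn, the calcitonin receptor gene Calcr, the transcription factor gene Klf14 and the Ras exchange factor gene Rasgrf1 stayed under 1 CPM in every library and were not tested. Snrpn and Snurf, which encode the splicing protein SmN and an upstream reading frame, share a transcript, and their listing at 0 may mean only that their reads were assigned to neither. The strand setting of the counting is not given in the sources used here, so values of overlapping genes are uncertain: Kcnq1ot1 lies antisense to Kcnq1, Airn to Igf2r, and Nespas to part of the Gnas locus, while Copg2 overlaps the end of Mest, and Mcts2, Nap1l5, Zrsr1, Nnat and Peg13 lie within the bodies of other genes. Reads with several alignments were not counted, which makes the intronless copies Mcts2 and Zrsr1 uncertain.

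**Figure D1:**
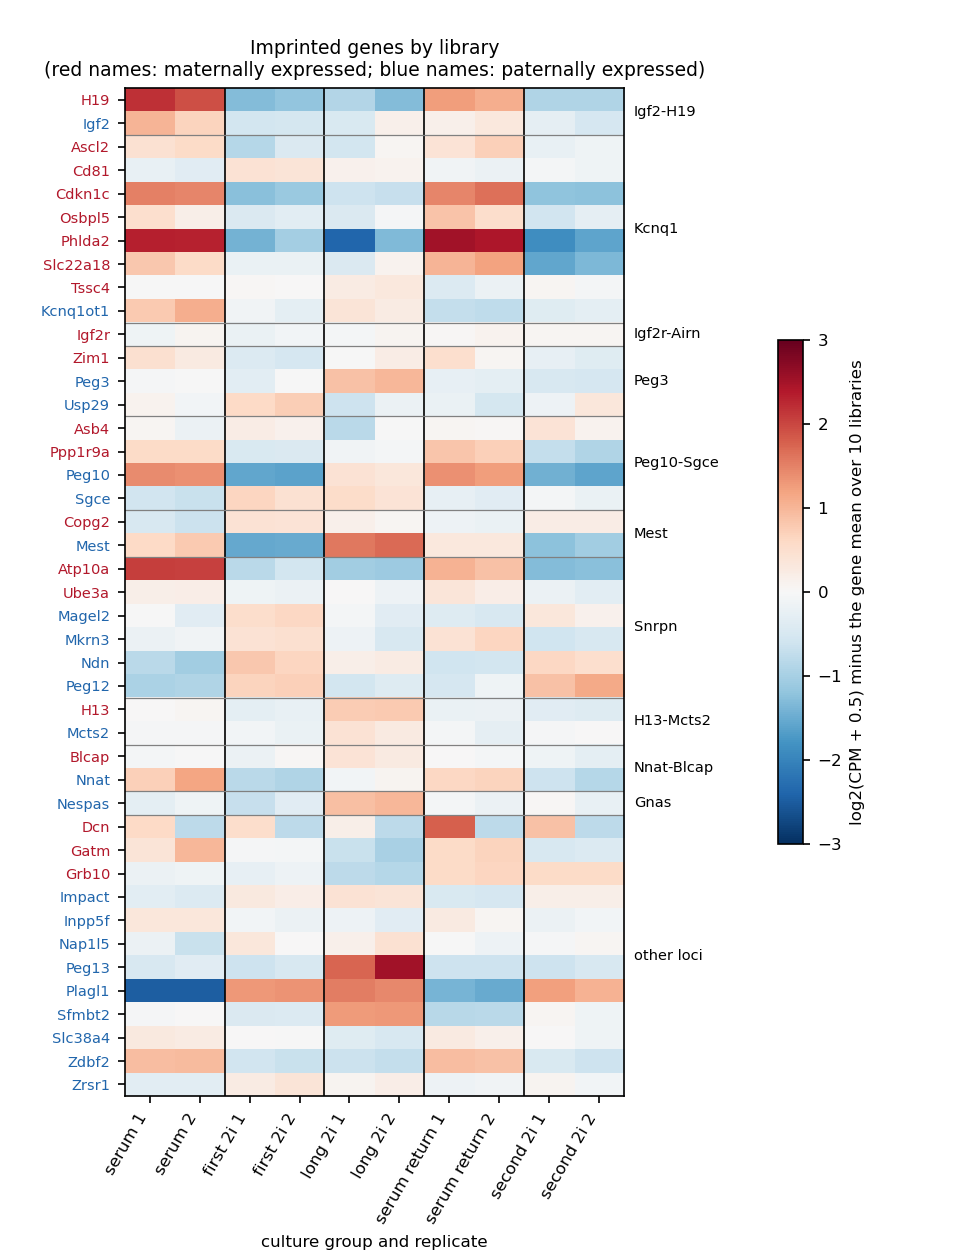
Each row is one of the 43 tested imprinted genes, ordered by cluster, and each column one of the 10 libraries in culture order; colour is log2(CPM + 0.5) minus the mean of that gene over the libraries, limited to ±3. Rows such as Phlda2, Cdkn1c and Peg10 are low in 2i libraries, Plagl1 is high in them, and Mest, Peg3 and Sfmbt2 are highest in the long 2i libraries.

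The map of levels by library separated the media for many of the genes. All 6 libraries in 2i lay below all 4 in serum or serum return for 16 of the 43 genes (37.2%, against 20.5% of the 14220 genes tested). Of these, 10 are maternally expressed: H19, Cdkn1c, Phlda2, Slc22a18, Ascl2, Osbpl5, Ppp1r9a, Ube3a, Atp10a and Gatm. The other 6 are Igf2, Peg10, Nnat, Zdbf2, Slc38a4 and Inpp5f. All 2i libraries lay above all serum libraries for 6 genes (14.0%, against 19.9%): Plagl1, Impact, Ndn, Sgce, Zrsr1 and Copg2. Long 2i set itself apart in another way. Its libraries lay above the 8 others for 11 genes (25.6%, against 18.5%), of which 8 are paternally expressed, and below them for Grb10, Gatm and Slc38a4 (6.98%, against 16.9%).

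First 2i against serum asked how the imprinted genes respond to 5 to 6 passages of GSK3 and ERK inhibition. Of the 43 genes, 12 were higher and 21 lower in first 2i, and 10 did not pass (edgeR quasi-likelihood test, Benjamini-Hochberg adjusted p under 0.05). Over all genes tested, 70.0% passed, 35.1% higher and 34.9% lower, so passing was common. Changes of at least 2-fold passed for 22 of the 43, against 25.6% of all genes. By allele, 2 maternally expressed genes were higher and 12 lower of 20, with a median log2 fold change of -0.68. Of the 23 paternally expressed genes 10 were higher and 9 lower, with a median of -0.14, and the median over all genes tested was 0.01.

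The genes restraining growth in the Kcnq1 cluster were low wherever 2i was present. Cdkn1c, the cyclin-dependent kinase inhibitor p57, read 7.41 and 7.19 CPM in serum, 0.655 and 0.779 in first 2i, 1.30 and 1.21 in long 2i, 7.17 and 8.14 in serum return and, in second 2i, 0.708 and 0.685. Every 2i library was below every serum library, and the serum return libraries overlapped those of serum. Cdkn1c fell 10.1-fold in first 2i (log2 fold change -3.34 ± 0.22 SE, edgeR adjusted p = 2.74e-11) and 10.9-fold in second 2i against serum return (log2 fold change -3.44 ± 0.22 SE, edgeR adjusted p = 2.64e-11). Serum return was 6.05-fold above long 2i (log2 fold change 2.60 ± 0.20 SE, edgeR adjusted p = 3.22e-10). It was 1.75-fold higher in long than in first 2i (log2 fold change 0.80 ± 0.31 SE, edgeR adjusted p = 0.0312), a call that ended with the DESeq2 Wald test (adjusted p = 0.0983).

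Phlda2, a pleckstrin homology protein that limits placental growth, read 12.5 and 12.4 CPM in serum, 0.468 and 0.779 in first 2i, 0 and 0.528 in long 2i, 14.3 and 13.5 in serum return and, in second 2i, 0.218 and 0.369. Its serum and 2i libraries were separated by over 10 CPM. In first 2i it was 19.9-fold lower than in serum (log2 fold change -4.31 ± 0.28 SE, edgeR adjusted p = 1.18e-10), in serum return 49.0-fold higher than in long 2i (log2 fold change 5.61 ± 0.33 SE, edgeR adjusted p = 2.61e-11), and in second 2i 46.3-fold lower than in serum return (log2 fold change -5.53 ± 0.33 SE, edgeR adjusted p = 3.14e-11). Serum return and serum differed by a log2 fold change of 0.16, which did not pass (edgeR adjusted p = 0.499).

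Slc22a18, a transporter-like membrane protein, differed most between the 2 exposures to 2i, apart from H19 and Peg13 with their few counts. Slc22a18 also had few counts in second 2i, at 2 and 4, so its fold changes against that group are uncertain in size. It read 2.63 and 2.19 CPM in serum, 1.08 and 1.07 in first 2i, 0.828 and 1.43 in long 2i, 3.16 and 3.67 in serum return and, in second 2i, 0.109 and 0.211. The second 2i libraries were lowest of all, while first and long 2i overlapped. It was 2.24-fold lower in first 2i than in serum (log2 fold change -1.17 ± 0.29 SE, edgeR adjusted p = 0.00140) and 20.4-fold lower in second 2i than in serum return (log2 fold change -4.35 ± 0.41 SE, edgeR adjusted p = 1.00e-08). Second 2i was 6.47-fold below first 2i (log2 fold change -2.69 ± 0.52 SE, edgeR adjusted p = 0.000399).

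Ascl2, a transcription factor of the trophoblast, read 1.67 and 1.88 CPM in serum, 0.374 and 0.682 in first 2i, 0.591 and 1.16 in long 2i, 1.61 and 2.09 in serum return and, in second 2i, 0.872 and 0.949. It fell in first 2i against serum (log2 fold change -1.74 ± 0.38 SE, edgeR adjusted p = 0.000440), and its rise in serum return over long 2i (log2 fold change 1.04 ± 0.35 SE, edgeR adjusted p = 0.0113) and fall in second 2i against serum return (log2 fold change -1.01 ± 0.34 SE, edgeR adjusted p = 0.0143) were small. Both smaller calls ended with the DESeq2 Wald test (adjusted p = 0.0783 and 0.0841). Osbpl5, an oxysterol-binding protein, averaged 0.240 ± 0.108 CPM in second 2i and 1.11 ± 0.255 CPM in serum return (SD, n = 2 each). It was 4.58-fold lower in second 2i (log2 fold change -2.20 ± 0.50 SE, edgeR adjusted p = 0.000668).

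The cluster's paternally expressed antisense RNA Kcnq1ot1, which silences the cluster in cis on the paternal chromosome, did not follow the medium in the same way. It read 7.99 and 10 CPM in serum, 4.07 and 3.51 in first 2i, 5.97 and 5.28 in long 2i, 2.51 and 2.42 in serum return and, in second 2i, 3.32 and 3.48. Serum libraries were the highest and serum return libraries the lowest, below every 2i library. Kcnq1ot1 was 2.36-fold lower in first 2i than in serum (log2 fold change -1.24 ± 0.16 SE, edgeR adjusted p = 1.01e-06), 2.27-fold lower in serum return than in long 2i (log2 fold change -1.18 ± 0.19 SE, edgeR adjusted p = 9.43e-06) and 3.63-fold lower in serum return than in serum (log2 fold change -1.86 ± 0.17 SE, edgeR adjusted p = 1.35e-07). Its response to second 2i was opposite in sign to its response to first 2i, rising by a log2 fold change of 0.46 ± 0.20 over serum return (edgeR adjusted p = 0.0497, just under the threshold). Being under 2-fold, this call was not followed through the alternative settings. At the far end of the cluster the tetraspanin gene Cd81 was higher in first 2i, at 351 ± 7.01 CPM against 218 ± 11.2 CPM in serum (SD, n = 2 each; log2 fold change 0.69 ± 0.05 SE, edgeR adjusted p = 1.60e-10). Tssc4 changed by less than 2-fold in every comparison.

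In the Igf2-H19 cluster both genes were low in 2i. H19, a growth-restraining noncoding RNA expressed from the maternal chromosome, read 5.17 and 4.22 CPM in serum, 0 and 0.0487 in first 2i, 0.177 and 0 in long 2i, 2.48 and 2.14 in serum return and, in second 2i, 0.164 and 0.158. It had 189 counts in serum, 1 in first 2i, 3 in long 2i, 115 in serum return and 6 in second 2i, so the serum groups stood clear of the 2i groups. The level in serum was 198 (95% interval 35.1 to 7874) times that in first 2i and 56.3 (95% interval 19 to 275) times that in long 2i, with intervals that cover counting error only. The level in serum return was 27.8 (95% interval 9.29 to 137) times that in long 2i, and H19 passed as higher there (edgeR adjusted p = 2.15e-07). H19 passed as lower in first 2i than in serum (edgeR adjusted p = 4.93e-10), and serum return stayed 2.02-fold below serum (log2 fold change -1.02 ± 0.25 SE, edgeR adjusted p = 0.00461), a call that ended with the DESeq2 Wald test (adjusted p = 0.0659) and without serum replicate 1 (edgeR adjusted p = 0.0639).

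Igf2, the growth factor expressed from the paternal chromosome, read 1.39 and 0.990 CPM in serum, 0.140 and 0.146 in first 2i, 0.177 and 0.528 in long 2i, 0.538 and 0.651 in serum return and, in second 2i, 0.272 and 0.158. Its 2i libraries all lay below its serum and serum return libraries. In first 2i it was 8.04-fold lower than in serum (log2 fold change -3.01 ± 0.56 SE, edgeR adjusted p = 7.38e-05). Serum return over long 2i did not pass (log2 fold change 0.69, edgeR adjusted p = 0.247). Igf2 passed as lower in second 2i than in serum return (log2 fold change -1.43 ± 0.59 SE, edgeR adjusted p = 0.0388), a call that ended without the filter (edgeR adjusted p = 0.0546), with the DESeq2 Wald test (adjusted p = 0.147) and when any 1 of the 4 libraries compared was left out (edgeR adjusted p 0.0662 to 0.222). Igf2r, the maternally expressed receptor that clears Igf2 from the cell surface, lay between 139 and 171 CPM in all 10 libraries. It did not pass in first 2i against serum (log2 fold change -0.12, edgeR adjusted p = 0.119), but passed with the title series as a block (edgeR adjusted p = 0.00555) and without serum replicate 1 (edgeR adjusted p = 0.00798). Long over first 2i passed narrowly (log2 fold change 0.16 ± 0.07 SE, edgeR adjusted p = 0.0461), a call that ended with the size factors of DESeq2 (edgeR adjusted p = 0.0531), with its Wald test (adjusted p = 0.0835) and when any 1 of 6 libraries was left out (edgeR adjusted p 0.0546 to 0.371).

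Levels of other cell types' markers moved with the media too, beside these falls. The summed endoderm markers were 6.64 and 6.04 CPM in first 2i and 38.3 and 41.7 CPM in serum, and the summed neural markers 30.7 and 30.2 CPM in first 2i and 82.6 and 84.6 CPM in serum. Over all genes tested in first 2i against serum, 70.0% passed, 35.1% higher and 34.9% lower, so counts from such short lists say little. Of the endoderm markers tested there, 2 rose and 2 fell of 6, and of the neural markers 5 fell of 5. Tubb3 made up most of the fall in the neural sum, at 6.736 and 6.185 CPM in first 2i and 47.64 and 47.05 CPM in serum. Sox7 made up most of the endoderm sum, at 1.45 and 1.07 CPM in first 2i and 34.0 and 36.7 CPM in serum, and Afp, Foxa2, Sox17 and Ttr stayed under 1 CPM throughout. The summed fibroblast markers were 10.2 and 8.43 CPM in first 2i and 25.7 and 22.8 CPM in serum, with Thy1 at 0.515 and 0.390 CPM in first 2i and 14.8 and 12.6 CPM in serum and Twist2 at 0 in every library. Thy1 made up most of the difference in that sum. Of the fibroblast markers tested, 1 rose, the collagen gene Col1a2, and 2 fell of 4, Col1a1 and Thy1, while Pdgfrb did not pass (log2 fold change -0.14, edgeR adjusted p = 0.349). Summed trophectoderm markers moved the other way, at 222.9 and 239.3 CPM in first 2i and 119.0 and 128.4 CPM in serum, and 5 rose of 6 tested. Most of that rise came from Tead4, averaging 105.1 CPM in first 2i and 64.69 CPM in serum, and Tfap2c, averaging 94.48 and 44.08 CPM. Cdx2 and Elf5 stayed under 1 CPM in both groups. The part of such cells in the imprinted gene levels was not tested, and in bulk RNA fewer cells of a type and less RNA per cell cannot be told apart.

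**Figure D2:**
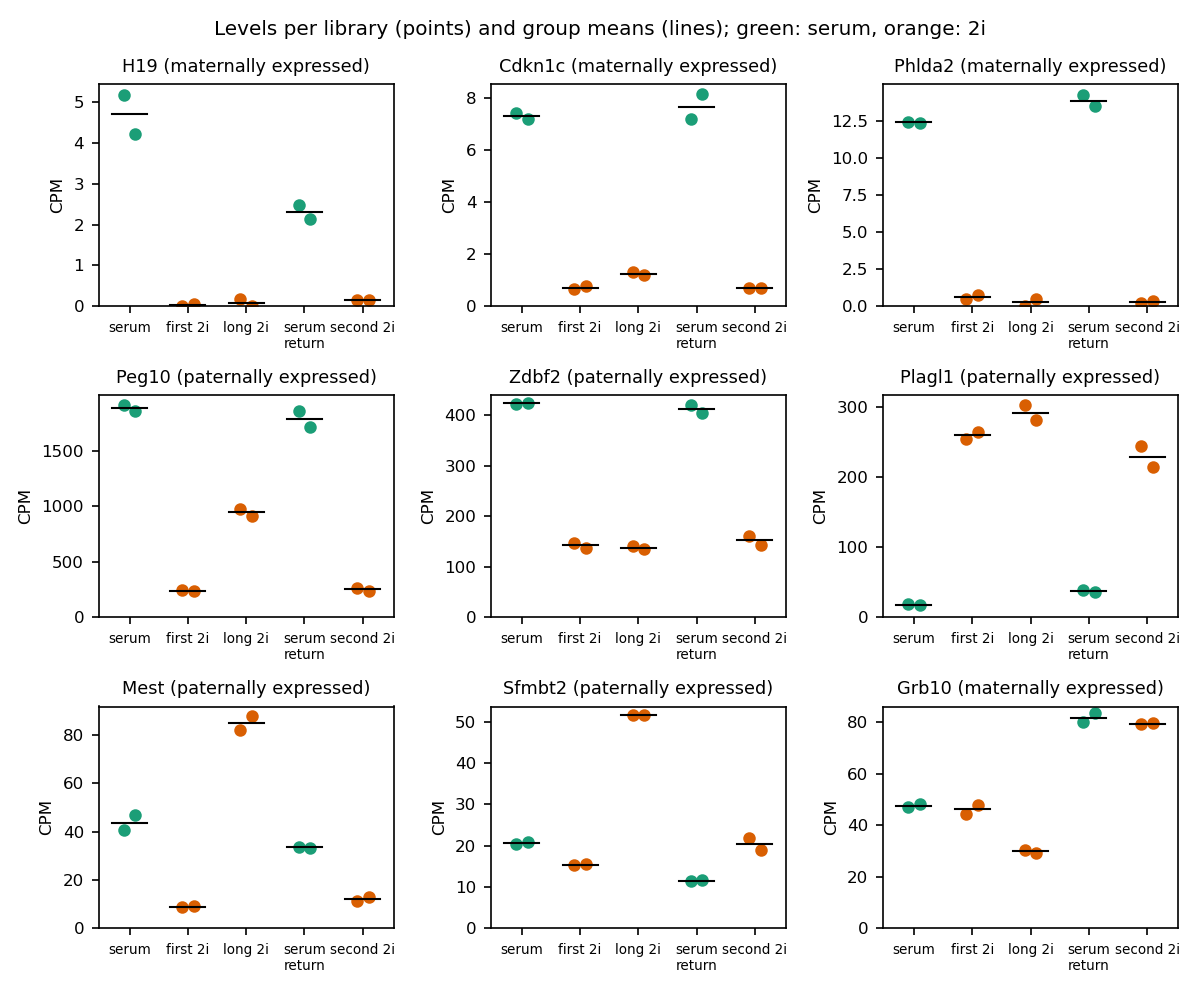
CPM in each library (points, 2 per group) by culture group in culture order for selected imprinted genes, with lines at the group mean; each axis starts at 0. Phlda2, Cdkn1c and Zdbf2 alternate between media, Mest and Sfmbt2 peak in long 2i, and Grb10 is lowest in long 2i and highest in serum return and second 2i.

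In the Peg10-Sgce cluster 2 neighbouring, paternally expressed genes moved in opposite directions. Peg10, derived from a retrotransposon and required for the placenta, read 1911 and 1854 CPM in serum, 243 and 236 in first 2i, 976 and 912 in long 2i, 1851 and 1715 in serum return and, in second 2i, 264 and 239. First and second 2i overlapped and were lowest, and long 2i lay between them and the serum groups without overlap. Peg10 was 7.87-fold lower in first 2i than in serum (log2 fold change -2.98 ± 0.06 SE, edgeR adjusted p = 1.37e-19), 3.95-fold higher in long than in first 2i (log2 fold change 1.98 ± 0.06 SE, edgeR adjusted p = 1.73e-16) and 7.10-fold lower in second 2i than in serum return (log2 fold change -2.83 ± 0.06 SE, edgeR adjusted p = 3.99e-19).

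Sgce, the ε-sarcoglycan gene that shares a bidirectional promoter with Peg10, read 14.6 and 13.8 CPM in serum, 35.1 and 30.7 in first 2i, 32.5 and 29.7 in long 2i, 18.5 and 17.4 in serum return and, in second 2i, 21.2 and 19.2. First and long 2i overlapped, well above serum, and second 2i lay only just above serum return. It was 2.32-fold higher in first 2i than in serum (log2 fold change 1.21 ± 0.10 SE, edgeR adjusted p = 6.06e-10) and did not pass in second 2i against serum return (log2 fold change 0.17, edgeR adjusted p = 0.144). Ppp1r9a, a neuronal actin-binding protein of the same cluster that is maternally expressed, was 2.04-fold lower in first 2i than in serum (log2 fold change -1.03 ± 0.07 SE, edgeR adjusted p = 1.97e-11) and 3.04-fold lower in second 2i than in serum return (log2 fold change -1.60 ± 0.07 SE, edgeR adjusted p = 2.30e-14). Asb4, an ankyrin and SOCS-box protein, stayed under 2 CPM and passed in no comparison.

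Mest, a paternally expressed gene of the hydrolase-fold family, had the widest swing between first and long 2i among the genes with more than a few counts. It read 40.9 and 46.7 CPM in serum, 8.98 and 9.06 in first 2i, 82.0 and 87.9 in long 2i, 33.8 and 33.4 in serum return and, in second 2i, 11.2 and 12.8. The long 2i libraries were the highest and the first 2i libraries the lowest, with serum in between. Mest was 4.85-fold lower in first 2i than in serum (log2 fold change -2.28 ± 0.10 SE, edgeR adjusted p = 1.49e-14), then 9.42-fold higher in long than in first 2i (log2 fold change 3.24 ± 0.09 SE, edgeR adjusted p = 1.73e-16). It was 2.53-fold lower in serum return than in long 2i (log2 fold change -1.34 ± 0.08 SE, edgeR adjusted p = 3.50e-12) and 2.79-fold lower in second 2i than in serum return (log2 fold change -1.48 ± 0.09 SE, edgeR adjusted p = 1.78e-11).

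Copg2, a coat protein subunit whose end overlaps Mest and which is reported as maternally expressed, read 69.5 and 62.2 CPM in serum, 131 and 131 in first 2i, 109 and 102 in long 2i, 88.2 and 85.0 in serum return and, in second 2i, 114 and 114. First 2i was its highest group and serum its lowest. It was 1.99-fold higher in first 2i than in serum (log2 fold change 0.99 ± 0.06 SE, edgeR adjusted p = 9.04e-12) and lower in long than in first 2i by a log2 fold change of -0.31 ± 0.06 (edgeR adjusted p = 0.000128).

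Peg3, a paternally expressed zinc finger gene, read 22.5 and 22.9 CPM in serum, 18.4 and 22.7 in first 2i, 42.7 and 46.7 in long 2i, 19.3 and 18.6 in serum return and, in second 2i, 16.4 and 16.2. The long 2i libraries lay above all others, and serum and first 2i overlapped. Peg3 was 2.18-fold higher in long than in first 2i (log2 fold change 1.12 ± 0.09 SE, edgeR adjusted p = 2.40e-09) and 2.36-fold lower in serum return than in long 2i (log2 fold change -1.24 ± 0.09 SE, edgeR adjusted p = 2.07e-10), while first 2i against serum did not pass (log2 fold change -0.14, edgeR adjusted p = 0.197). Its neighbours Zim1, another zinc finger gene, and Usp29, a ubiquitin protease gene that starts beside Peg3, stayed under 1 CPM. Usp29 was lower in long 2i, at 0.0591 and 0.264 CPM against 0.795 and 0.925 CPM in first 2i.

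The Snrpn cluster, deleted or silenced in Prader-Willi syndrome in humans, split by gene. Ndn, a MAGE-family growth suppressor, read 5.26 and 4.38 CPM in serum, 17.0 and 15.2 in first 2i, 10.9 and 11.4 in long 2i, 6.21 and 6.37 in serum return and, in second 2i, 15.0 and 13.8. All its 2i libraries lay above all serum libraries, with first 2i highest. Ndn was 3.34-fold higher in first 2i than in serum (log2 fold change 1.74 ± 0.13 SE, edgeR adjusted p = 1.60e-10) and 2.29-fold higher in second 2i than in serum return (log2 fold change 1.20 ± 0.12 SE, edgeR adjusted p = 3.06e-08).

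Peg12, a Frat-family gene whose relatives encode GSK3-binding proteins, read 1.24 and 1.30 CPM in serum, 4.87 and 5.07 in first 2i, 1.83 and 2.11 in long 2i, 1.90 and 2.60 in serum return and, in second 2i, 5.78 and 7.01. First and second 2i were the high groups and long 2i overlapped with serum return. It was 3.89-fold higher in first 2i than in serum (log2 fold change 1.96 ± 0.23 SE, edgeR adjusted p = 1.97e-07), 2.50-fold lower in long than in first 2i (log2 fold change -1.32 ± 0.22 SE, edgeR adjusted p = 2.22e-05) and 2.88-fold higher in second 2i than in serum return (log2 fold change 1.52 ± 0.19 SE, edgeR adjusted p = 8.11e-07). Magel2, another MAGE-family gene, stayed under 1 CPM.

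Mkrn3, a ring-finger ubiquitin ligase, read 5.07 and 5.32 CPM in serum, 7.95 and 8.33 in first 2i, 5.20 and 4.01 in long 2i, 8.07 and 9.35 in serum return and, in second 2i, 3.65 and 4.01. It was higher in first 2i than in serum and lower in second 2i than in serum return, without overlap in either pair. The first change was a log2 fold change of 0.65 ± 0.15 (edgeR adjusted p = 0.000776) and the second of -1.18 ± 0.16 (edgeR adjusted p = 1.61e-06).

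On the maternal side of the cluster Atp10a, a phospholipid flippase, read 12.6 and 12.3 CPM in serum, 1.26 and 1.61 in first 2i, 1.00 and 0.950 in long 2i, 5.92 and 5.21 in serum return and, in second 2i, 0.763 and 0.791. Its serum return libraries lay between the serum libraries and the 2i libraries. It was 8.67-fold lower in first 2i than in serum (log2 fold change -3.12 ± 0.18 SE, edgeR adjusted p = 2.67e-12), 5.70-fold higher in serum return than in long 2i (log2 fold change 2.51 ± 0.22 SE, edgeR adjusted p = 2.18e-09) and 2.23-fold lower in serum return than in serum (log2 fold change -1.16 ± 0.14 SE, edgeR adjusted p = 4.02e-06). Second 2i was 7.14-fold below serum return (log2 fold change -2.84 ± 0.23 SE, edgeR adjusted p = 7.60e-10). Ube3a, the ubiquitin ligase gene of Angelman syndrome that is imprinted mainly in neurons, moved by less than 2-fold in every comparison.

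Plagl1, a paternally expressed zinc finger transcription factor and regulator of other imprinted genes, had the largest rise in first 2i among the genes that passed. It read 18.4 and 18.2 CPM in serum, 255 and 265 in first 2i, 303 and 282 in long 2i, 39.0 and 35.9 in serum return and, in second 2i, 246 and 214. Each 2i library was at least 5 times any serum library, and serum return stayed above serum. Plagl1 was 14.2-fold higher in first 2i than in serum (log2 fold change 3.83 ± 0.08 SE, edgeR adjusted p = 2.48e-19), 7.79-fold lower in serum return than in long 2i (log2 fold change -2.96 ± 0.07 SE, edgeR adjusted p = 2.15e-18) and 6.12-fold higher in second 2i than in serum return (log2 fold change 2.61 ± 0.07 SE, edgeR adjusted p = 1.84e-17). Serum return was 2.05-fold above serum (log2 fold change 1.04 ± 0.08 SE, edgeR adjusted p = 2.45e-08).

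Grb10, an adaptor that dampens insulin and growth factor receptor signalling, did not follow the medium. It read 46.9 and 48.2 CPM in serum, 44.5 and 47.9 in first 2i, 30.4 and 29.1 in long 2i, 79.8 and 83.3 in serum return and, in second 2i, 79.1 and 79.5. Serum and first 2i overlapped, long 2i was lowest, and serum return and second 2i were the highest groups and lay close together. Grb10 was 2.74-fold higher in serum return than in long 2i (log2 fold change 1.45 ± 0.07 SE, edgeR adjusted p = 5.58e-14), 1.71-fold higher in serum return than in serum (log2 fold change 0.78 ± 0.06 SE, edgeR adjusted p = 2.46e-08) and 1.72-fold higher in second than in first 2i (log2 fold change 0.78 ± 0.06 SE, edgeR adjusted p = 8.57e-09). Neither response to 2i passed, with log2 fold changes of -0.04 in first 2i against serum (edgeR adjusted p = 0.579) and -0.04 in second 2i against serum return (edgeR adjusted p = 0.582).

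Sfmbt2, a Polycomb-related gene imprinted in the extraembryonic lineages, read 20.4 and 20.9 CPM in serum, 15.2 and 15.6 in first 2i, 51.5 and 51.6 in long 2i, 11.4 and 11.7 in serum return and, in second 2i, 21.9 and 18.9. The long 2i libraries lay far above the other groups, and serum return was lowest. It was 3.34-fold higher in long than in first 2i (log2 fold change 1.74 ± 0.09 SE, edgeR adjusted p = 1.00e-12) and 4.47-fold lower in serum return than in long 2i (log2 fold change -2.16 ± 0.09 SE, edgeR adjusted p = 1.09e-14).

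Peg13, a noncoding RNA within an intron of Trappc9, was detected almost only in long 2i. It read 0.0478 and 0.104 CPM in serum, 0 and 0.0487 in first 2i, 2.07 and 3.91 in long 2i, 0 and 0 in serum return and, in second 2i, 0 and 0.0527. There were 109 counts in the long 2i libraries, and 3 in serum, 1 in first 2i, 0 in serum return and 1 in second 2i. The level in long 2i was 127 (95% interval 22.4 to 5077) times that in first 2i and at least 50-fold higher than in serum return, taking 3 counts over that group as the floor. Peg13 passed in both comparisons (edgeR adjusted p = 1.53e-07 for long over first 2i and 2.50e-08 for serum return against long 2i). Its host Trappc9, an imprinted neighbour named here after its values were seen, was lower in long 2i, at 35.6 and 33.9 CPM against 53.8 and 49.4 CPM in first 2i.

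At the Gnas locus Nespas, a noncoding antisense RNA, read 4.97 and 5.63 CPM in serum, 3.65 and 4.77 in first 2i, 11.9 and 12.9 in long 2i, 5.92 and 5.40 in serum return and, in second 2i, 6.32 and 5.22. It was highest in long 2i, 2.96-fold above first 2i (log2 fold change 1.57 ± 0.15 SE, edgeR adjusted p = 2.76e-08), and 2.19-fold lower in serum return than in long 2i (log2 fold change -1.13 ± 0.14 SE, edgeR adjusted p = 5.77e-07). Gnas itself, which encodes a G protein subunit, was lowest in long 2i, at 67.5 and 67.6 CPM against 137 and 149.8 CPM in first 2i (log2 fold change -1.09 ± 0.06 SE, edgeR adjusted p = 2.00e-12). Since the strand setting is not known, reads of the overlapping transcripts of this locus cannot be told apart.

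H13, an intramembrane protease gene, was 2.06-fold higher in long 2i, at 56.3 and 57.1 CPM against 26.9 and 28.2 CPM in first 2i (log2 fold change 1.04 ± 0.07 SE, edgeR adjusted p = 1.89e-10), and Mcts2, the retrogene inside it, was 1.40-fold higher (log2 fold change 0.49 ± 0.09 SE, edgeR adjusted p = 0.000127). The host and the gene within it thus moved the same way there. Nnat, the membrane protein neuronatin, lies inside Blcap and read 2.54 and 3.70 CPM in serum, 0.561 and 0.487 in first 2i, 1.24 and 1.48 in long 2i, 2.33 and 2.47 in serum return and, in second 2i, 0.708 and 0.527. Its 2i libraries all lay below its serum libraries, with long 2i highest among them. Nnat was 5.86-fold lower in first 2i than in serum (log2 fold change -2.55 ± 0.32 SE, edgeR adjusted p = 5.45e-07) and 2.58-fold higher in long than in first 2i (log2 fold change 1.37 ± 0.38 SE, edgeR adjusted p = 0.00372), while Blcap did not pass in first 2i against serum.

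Among the genes outside the clusters Zdbf2, a paternally expressed gene that promotes growth after birth in the mouse, read 423 and 425 CPM in serum, 147 and 138 in first 2i, 142 and 135 in long 2i, 421 and 405 in serum return and, in second 2i, 160.5 and 144. It followed the medium, with first and long 2i overlapping and second 2i close to them. Zdbf2 was 2.98-fold lower in first 2i than in serum (log2 fold change -1.57 ± 0.06 SE, edgeR adjusted p = 9.68e-16) and 2.71-fold lower in second 2i than in serum return (log2 fold change -1.44 ± 0.06 SE, edgeR adjusted p = 5.24e-15). Impact, a regulator of the translation kinase Gcn2, was 1.53-fold higher in first 2i than in serum (log2 fold change 0.62 ± 0.05 SE, edgeR adjusted p = 1.60e-09) and 1.58-fold higher in second 2i than in serum return (log2 fold change 0.66 ± 0.05 SE, edgeR adjusted p = 6.35e-10).

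Gatm, an enzyme of creatine synthesis, averaged 0.115 ± 0.0881 CPM in long 2i and 1.29 ± 0.536 CPM in serum (SD, n = 2 each; log2 fold change -3.45 ± 0.60 SE, edgeR adjusted p = 3.40e-05). Its smaller fall in first 2i against serum (log2 fold change -1.21 ± 0.41 SE, edgeR adjusted p = 0.0131) ended with the DESeq2 Wald test (adjusted p = 0.0989). The amino acid transporter Slc38a4 and the phosphoinositide phosphatase Inpp5f were lower, and the splicing factor retrogene Zrsr1 higher, in first 2i than in serum, each by less than 2-fold, with log2 fold changes of -0.28, -0.46 and 0.65 (edgeR adjusted p = 0.000184, 0.000114 and 3.29e-07). Nap1l5, a nucleosome assembly protein-like gene, stayed under 2 CPM.

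Long against first 2i asked what more than 13 passages added to the first response. Of the 43 genes 17 were higher in long 2i and 10 lower, and 16 did not pass, while 61.2% of all genes passed (30.4% higher and 30.8% lower). Among the 15 tested genes whose promoter lies in a maternally methylated germline region, 10 were higher and 1 lower, with a median log2 fold change of 0.49. The 10 were Plagl1, Peg3, Mest, Peg10, Impact, Mcts2, Peg13, Kcnq1ot1, Nespas and Nnat, and Usp29 was lower. The calls for Plagl1 (log2 fold change 0.17) and Impact (0.16) were small and ended when 1 of several libraries was left out. Among the 28 other imprinted genes 7 were higher and 9 lower, with a median of 0.02. The same germline-region genes were 6 higher and 5 lower in first 2i against serum. Of the 65 tested protein-coding genes that flank the imprinted genes, 17 were higher and 25 lower in long than in first 2i.

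**Figure D3:**
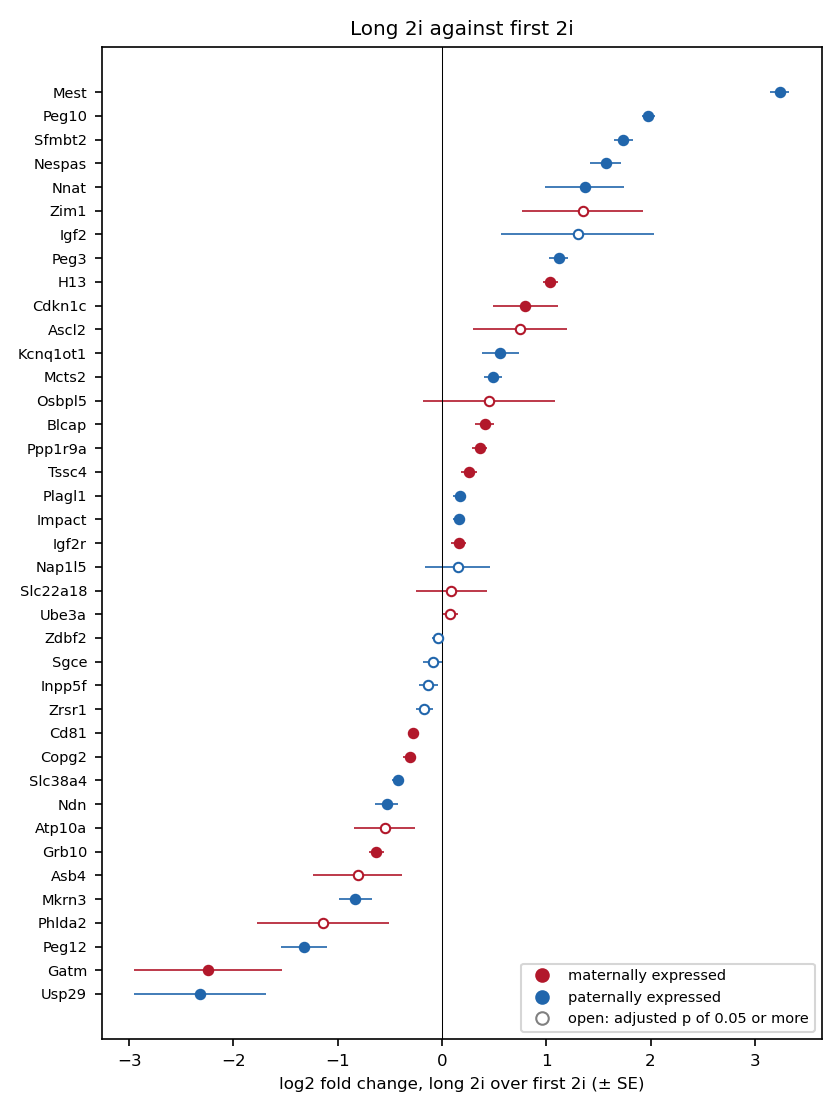
Log2 fold change of long over first 2i (x axis, bars ± SE) for the tested imprinted genes in order of size. Filled points passed at an edgeR adjusted p under 0.05. H19, Peg13, Magel2 and Dcn are left out, while other genes with few counts in a group, such as Gatm and Usp29, are shown. Mest, at 3.24, and Peg10, at 1.98, lead the genes that rose.

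Long 2i against serum shares its libraries with those comparisons and is given here for its counts, beside the values of Gatm, H19 and Meg3 printed elsewhere. Of the 43 genes 18 were higher and 17 lower in long 2i, while 68.9% of all genes passed (35.1% higher and 33.9% lower). The maternally expressed genes had 5 higher and 10 lower, and the paternally expressed genes 13 higher and 7 lower.

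Serum return tested whether levels came back. Against long 2i 17 genes were higher and 17 lower (71.4% of all genes passed, 35.4% higher and 36.0% lower), with 11 higher among the maternally expressed genes and 12 lower among the paternally expressed, and changes of at least 2-fold passed for 17 (26.8% of all genes). Against serum 9 were higher and 8 lower, 26 did not pass, and 31.0% of all genes passed (16.5% higher and 14.5% lower). Only 4 of these differences reached 2-fold (3.23% of all genes did): Kcnq1ot1, Atp10a and H19, which were lower in serum return, and Plagl1, which was higher. A p over the threshold does not show that the remaining genes were equal in the 2 serum groups. The number lower in serum return was 5 with the DESeq2 Wald test, 4 without serum replicate 1, and 5 without serum return replicate 1 or serum replicate 2, and the number higher was 5 without either of the last 2 libraries.

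The first response, first 2i against serum, and the second, second 2i against serum return, rest on separate libraries. In the second, 9 genes were higher and 20 lower, and 65.6% of all genes passed (32.3% higher and 33.3% lower). Changes of at least 2-fold passed for 20, against 22.0% of all genes. Across the 43 genes, which are not independent replicates, the responses had a Pearson r of 0.79 and a Spearman rho of 0.79, against 0.83 and 0.74 over all genes. Of the 28 genes that passed in both, 6 were higher in both, 19 were lower in both and 3, namely Kcnq1ot1, Mkrn3 and Sfmbt2, changed in opposite directions.

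**Figure D4:**
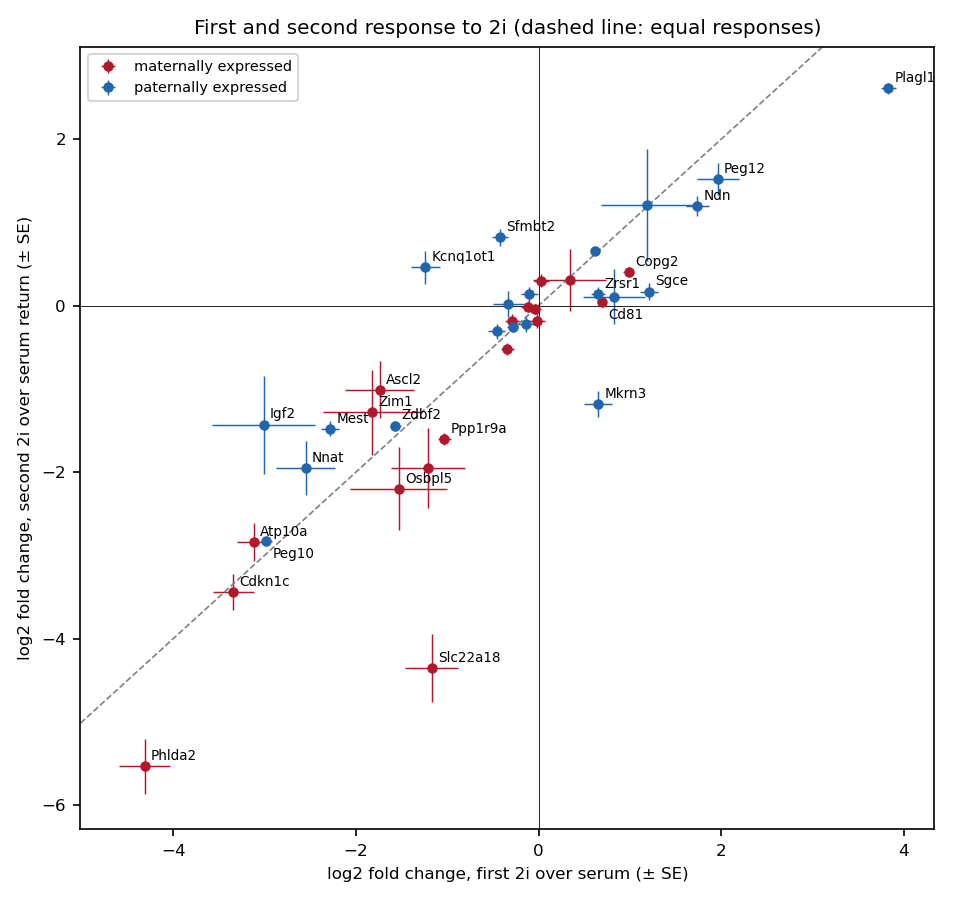
Log2 fold change of first 2i over serum (x axis) and of second 2i over serum return (y axis) for the tested imprinted genes. Bars are ± SE, and H19, Peg13, Magel2 and Dcn are left out. Other genes with few counts in a group, such as Igf2 and Slc22a18, are shown. Most genes lie near the dashed line of equal responses; Slc22a18, Mkrn3 and Plagl1 lie below it and Kcnq1ot1, Mest and Sfmbt2 above it.

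The difference of the responses, tested in the same model, passed for 4 genes with a higher and 9 with a lower second response, while it passed for 39.4% of all genes (18.4% and 21.0%). It reached 2-fold in 7 of them, against 8.69% of all genes. Slc22a18 had the largest lower second response (log2 difference -3.19 ± 0.57, edgeR adjusted p = 0.000204), with only 2 and 4 counts in second 2i. Directly between the 2i groups, 5 genes were higher and 10 lower in second than in first 2i (37.7% of all genes passed, 18.1% higher and 19.6% lower). The number higher was 3 without first 2i replicate 1 or second 2i replicate 2 and 2 without second 2i replicate 1, and the number lower was 5 without replicate 2 of either group. Of these genes, Slc22a18 and Mkrn3 reached 2-fold, both lower in second 2i, against 6.63% of all genes.

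Genes that maintain or erase imprints were measured beside them. Of 24 tested, 5 were higher and 11 lower in first 2i than in serum, and 9 were higher and 4 lower in long than in first 2i. These make up 66.7% and 54.2% of the list, against 70.0% and 61.2% of all genes. Dnmt3l, cofactor of the de novo methyltransferases, was at 4.44 and 3.94 CPM in first 2i and 371 and 369 CPM in serum, and at 83.0 and 84.2 CPM in long 2i. Dnmt3b averaged 28.65 CPM in first 2i, 146.5 CPM in serum and 179 CPM in long 2i. Dnmt3a averaged 23.57 CPM in first 2i and 50.8 CPM in serum, and Tet2 averaged 126.1 and 284.1 CPM. Dppa3, a maternal factor that shields methylation in the zygote, was at 12.2 and 12.9 CPM in first 2i, 1.09 and 1.74 CPM in second 2i and 1.15 and 0.677 CPM in serum. Zfp57, named here after its values were seen, was highest in second 2i, at 1185 and 1129 CPM against 774 and 724 CPM in serum return (log2 fold change 0.63 ± 0.05 SE, edgeR adjusted p = 3.87e-10). The part of these genes in the imprinted gene levels was not tested. In the Dlk1-Dio3 domain the maternally expressed noncoding RNA Meg3 was at 311 and 320.3 CPM in long 2i and 128 and 140.3 CPM in serum (log2 fold change 1.23 ± 0.06 SE, edgeR adjusted p = 9.34e-14). Of the 6 genes of that domain, 4 were higher and 1 lower in long 2i than in serum. Over all genes tested 68.9% passed there, 35.1% higher and 33.9% lower. Dio3 averaged 12.86 CPM in first 2i, 0.1499 CPM in serum and 0.7706 CPM in long 2i.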

How the data were processed

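The count of reads for each gene in 10 libraries was used as the authors deposited it, in whole numbers. The submitters' processing notes name HTSeq 0.5.4p5, TopHat2 2.0.4, CASAVA 1.8.2, DESeq2 and genome build mm9. Annotation, strand setting and read layout are not stated there. Of all records, 51.16 to 54.81% were gene counts, 33.41 to 36.51% had several alignments, 10.34 to 11.78% no feature and 0.69 to 0.73% an ambiguous one, and these categories stayed out of library sizes and tests. Gene counts per library ranged from 16809070 to 27766338.

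The test was edgeR 4.0.16 in R 4.3.3: filterByExpr by group (minimum count 10, minimum total 15) left 14220 genes, scaled by TMM, and a robust quasi-likelihood model with group as the only term was fitted to all 10 libraries (5 residual degrees of freedom). P-values of the 8 contrasts were two-sided and adjusted by Benjamini-Hochberg over all genes tested. Each standard error was obtained as the log2 fold change over the root of F. The model was tested on simulated data. Where a group held 1 to 3 counts a ratio with an exact 95% interval is given, and where it held 0 a bound against a floor of 3 counts over the group. Alternatives were the size factors of DESeq2, no filter, fitting a comparison's own groups alone, a block for the series of titles, the Wald test of DESeq2 1.42.0, and the removal of single libraries.

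The imprinted genes, lists and alternatives were chosen with earlier results of these data known. The rule for naming genes took those that passed with at least 2-fold and 1 CPM in the higher group, and always for H19, Igf2, Igf2r, Cdkn1c, Mest, Peg3, Plagl1, Snrpn, Grb10 and Impact, and their statistics are printed for some of their comparisons. Cd81, Copg2, Mcts2, Inpp5f, Slc38a4 and Zrsr1 are given with values although they fall outside that rule, chosen after their values were seen. The remaining imprinted genes are named so that each is accounted for. Promoter sequences are from RefSeq (GRCm38.p6), matched by symbol or synonym.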

Additional observations from a re-analysis of the deposited data

Results flagged for a closer look

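The second response to 2i (second 2i against serum return) and the first (first 2i against serum) differed for 8 of the named imprinted genes, by the edgeR test of the difference itself with Benjamini-Hochberg adjustment over all genes. Values are log2 differences, second minus first. Slc22a18 had -3.19 ± 0.57 (adjusted p = 0.000204), having fallen further in second 2i, where it held only 2 and 4 counts. Mkrn3 had -1.83 ± 0.22 (adjusted p = 2.52e-06), higher in first 2i than in serum and lower in second 2i than in serum return. Plagl1 had -1.21 ± 0.10 (adjusted p = 3.32e-08) and Sgce -1.05 ± 0.14 (adjusted p = 6.89e-06), both with a smaller fold change in the second response. Kcnq1ot1 had 1.70 ± 0.26 (adjusted p = 3.77e-05), lower in first 2i than in serum and higher in second 2i than in serum return. Sfmbt2 had 1.24 ± 0.13 (adjusted p = 6.62e-07) and Mest 0.80 ± 0.14 (adjusted p = 0.000133). H19 had 3.49 ± 1.27 (adjusted p = 0.0342), a fitted value that depends on the prior count, since first 2i held 1 count. The H19 call ended with the DESeq2 Wald test (adjusted p = 0.0639) and when any 1 of 4 libraries was left out, replicate 1 of serum and of first 2i and both of second 2i (edgeR adjusted p 0.0545 to 0.144). Of the 8 genes, 7, all but Slc22a18, also passed in serum return against serum, the groups against which the responses were measured.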

How the results depend on the processing

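Counts of genes and of imprinted genes called higher or lower in the 8 comparisons stayed within 1.5 times under the size factors of DESeq2, without the filter and in fits of only the groups compared. The DESeq2 Wald test moved 1 of them, the imprinted genes lower in serum return than in serum, to 5, against 8. Leaving out a library moved counts by over 1.5 times in serum return against serum and in second against first 2i. It did not do so in long against first 2i, which is also within a medium, or in the other comparisons. For serum return against serum, genes called ranged 2437 to 4477 against 4407 (lowest without serum return replicate 1, and 2822 without serum replicate 2), imprinted genes higher 5 to 8 against 9 and lower 4 to 8 against 8. For second against first 2i, genes called ranged 3556 to 5438 against 5357 (lowest without second 2i replicate 2), imprinted genes higher 2 to 5 against 5 and lower 5 to 10 against 10. The cause was not tested. The title series gives each group 1 LEM and 1 MLE library, but its meaning is not stated. Deviations of same-series libraries from their group means correlated with r of 0.099 to 0.168, positive in all 10 pairs of groups, 9 over 0.1 and 1 under, and the series was not taken as pairing the libraries. As a replicate block the series raised the imprinted genes with a higher second response to 7, against 4, and moved no other of these counts by over 1.5 times. Among the named genes it gained the calls of Igf2r in first 2i against serum (adjusted p = 0.00555), of Igf2 (0.0420), Igf2r (0.0469) and Impact (0.00356) in serum return against serum, and of Peg3 in second 2i against serum return (0.0210). Among the named genes no direction turned. Calls that ended under some alternative were those of Cdkn1c, Igf2r, Impact and Plagl1 in long against first 2i, Gatm in first 2i against serum (adjusted p = 0.233 without serum replicate 2), Igf2 and Slc22a18 in long 2i against serum, Ascl2 and Osbpl5 in serum return against long 2i, H19 and Peg3 in serum return against serum, Ascl2 and Igf2 in second 2i against serum return, Igf2r, Mest, Peg3 and Plagl1 in second against first 2i, and the H19 difference between responses (adjusted p 0.0545 to 0.144). Where a group kept 1 library, that library was assumed to vary like the other groups. A floor of 3 counts over a group corresponds to 0.0608 to 0.0837 CPM. H19, Peg13, Magel2, Gatm, Igf2, Slc22a18, Usp29 and, less closely, Zim1 were thus near the limit of detection in some groups.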

Other observations

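The summed level of the 28 paternally expressed genes was 3087 and 3021 CPM in serum, 1414 and 1384 in first 2i, 2285 and 2176 in long 2i, 3013 and 2819 in serum return and, in second 2i, 1401 and 1296. Peg10 alone accounted for most of that span. The summed level of the 24 maternally expressed genes stayed between 785.4 and 921.9 CPM in all libraries. Cd81, Igf2r, Copg2, Ppp1r9a and Ube3a made up most of it. Of the 17 tested genes reported elsewhere as imprinted and kept out of the list, 4 were higher and 9 lower in long than in first 2i. Over all genes tested 61.2% passed there, 30.4% higher and 30.8% lower.

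Besides Dcn, the genes with at least 10 counts in the LEM libraries and none in the MLE libraries included Mgp (278 counts), Hsd3b1 (81), Lyz2 (52), Col3a1 (40) and Cav1 (23), named here after their values were seen. Dcn was the only imprinted gene of the list among the 21. Its level in the LEM libraries ranged from 0.473 CPM in long 2i to 2.48 CPM in serum return. What sets the LEM libraries apart for these genes was not tested.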
